A study of Mus musculus with 3 samples.

Results

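Expression of 8 genes of retinoid metabolism and signalling was followed in mouse bone marrow-derived dendritic cells treated with recombinant articulatin B chain (rATB). The genes were taken by symbol, as the table rows named Aldh1a1, Aldh1a2, Aldh1a3, Aldh1a7, Rara, Rxra, Crabp2 and Rdh12, and make up 8 of the 34590 symbols measured. Each had 1 row. They were chosen by their levels in these same 3 libraries, with the values of the rATB, buffer and control columns known, so what follows describes them and no test of them is given. Articulatin is a mistletoe lectin of the ribosome-inactivating kind, whose B chain binds sugars. The study set the mRNA profile of cells given rATB against cells given buffer and cells left untreated.

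The groups were dendritic cells treated for 48 h with 800 ng/ml of rATB, cells given buffer, and untreated control cells. The dose label of the buffer library is unclear and was not used. Cells of all 3 groups were grown from femur and tibia marrow with 500 U/mL of granulocyte-macrophage colony-stimulating factor (GM-CSF), with non-adherent cells moved to new plates every other day and collected on day 6. The sources used here give no strain, sex or age of the mice, and do not say whether the libraries came from separate cultures. Each group was 1 library, so no difference below was set against a spread between cultures, and no p-value is given. Counting intervals at 95% are given in its place, and they cover the sampling of reads only. In whole cultures, fewer cells of a type and less RNA per cell cannot be told apart.

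Retinoic acid is made from vitamin A in steps. Retinol dehydrogenases and related reductases interconvert retinol and retinaldehyde, and retinaldehyde dehydrogenases of the Aldh1a family then oxidise retinaldehyde irreversibly to retinoic acid. The acid is carried by cellular binding proteins and acts through nuclear receptors, heterodimers of a retinoic acid receptor and a retinoid X receptor. Cytochrome P450 enzymes of the Cyp26 family degrade it. Dendritic cells of the gut are known for Aldh1a2, whose product lets them induce gut-homing receptors and regulatory T cells. GM-CSF, interleukin-4 and ligands of Toll-like receptor 2 are known to raise Aldh1a2 in dendritic cells.

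Reads recovered from the deposited gene values summed to 15203139 after rATB, 16105080 after buffer and 17776492 in control cells. Levels are in units, the deposited scaled reads put on a scale where the control library sums to 1000000. For a gene with 0 reads, the one-sided limit of 3 reads stood at 0.191 units after rATB, 0.176 after buffer and 0.169 in control cells, and the upper end of the exact 2-sided interval at 0.234, 0.216 and 0.208 units. Markers of dendritic cells were present in every library, and all 10 passed the filter of a mean of 1 unit. Their summed level was 9852 units after rATB, 12107 after buffer and 14509 in control cells, most of it Cd74, at 6059, 8533 and 10811 units. Singly, 6 of the 10 were highest after rATB and 4 lowest, and Ccr7 and Flt3 were called higher after rATB than in control cells. By the mean over the libraries, Itgax was the next most abundant after Cd74. Markers of macrophages and monocytes summed to 2397, 2484 and 3162 units in the same order, and 9 of 10 passed the filter. The complement genes C1qa, C1qb and C1qc were called lower after rATB than in control cells, at ratios of 0.348, 0.336 and 0.386. They were not called against buffer, where the ratios were 0.522, 0.569 and 0.611. Buffer itself stood at 0.668, 0.590 and 0.632 times the control. Cd14 and Cd68, the most abundant by the mean over the libraries, stood at ratios of rATB to control of 0.997 and 0.999. Markers of lymphocytes, epithelium and stroma were sparse. The lymphocyte and epithelial markers summed to at most 0.636 and 0.563 units in any library, and the stromal ones to 6.42 units after rATB, 5.56 after buffer and 7.03 in control cells, of which Pdgfrb made up 5.402, 5.27 and 6.58 units. Markers of neutrophils summed to between 37.2 and 41.5 units, those of eosinophils to between 22.4 and 33.4, and those of mast cells and basophils to between 37.6 and 40.3. Most of each sum was 1 gene. In the order rATB, buffer and control, S100a8 stood at 27.1, 24.9 and 22.6 units among the neutrophil markers. Siglecf stood at 20.6, 26.8 and 31.6 among those of eosinophils, and Gata2 at 37.5, 38.9 and 40.2 among those of mast cells and basophils. Mcpt8 and Fcer1a, of the last list, had 0 reads in every library.

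Aldh1a2 (ENSMUSG00000013584, on chromosome 9), which encodes the retinaldehyde dehydrogenase of gut dendritic cells, was the abundant member in all 3 libraries and lay close together in them. It had 5538 reads after rATB, 5806 after buffer and 5675 in control cells. Its level was 352 units after rATB (interval 343 to 361), 339.9 after buffer (331 to 349) and 319 in control cells (311 to 328). The rATB library was the highest and the control the lowest, and the intervals of rATB and buffer overlapped. The ratio of rATB to buffer was 1.04 (interval 0.998 to 1.07), and that of rATB to control 1.10 (1.06 to 1.14). The interval against buffer lay just above 1, from 1.0005 to 1.077, when libraries were scaled by the median of ratios. Buffer stood at 1.06 times the control (1.03 to 1.10). These differences were small against the rest of the table: 81.6% of the 12559 genes past the filter differed more between rATB and buffer, and 54.3% differed more between rATB and control. Only an annotated pseudogene on the opposite strand, Gm48124, overlapped Aldh1a2 in the annotation used.

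Per kilobase of annotated exon, Aldh1a2 stood at 155 units after rATB, 150.2 after buffer and 141 in control cells. That placed it at rank 280 of the 12265 genes with a level and a length, the top 2.28%. Among 19 aldehyde dehydrogenase genes followed, it had the highest mean level per kilobase, 149 units. Next came Aldh2, the mitochondrial enzyme best known for acetaldehyde, at 78.8 units per kilobase after rATB, 84.7 after buffer and 94.6 in control cells.

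**Figure D1:**
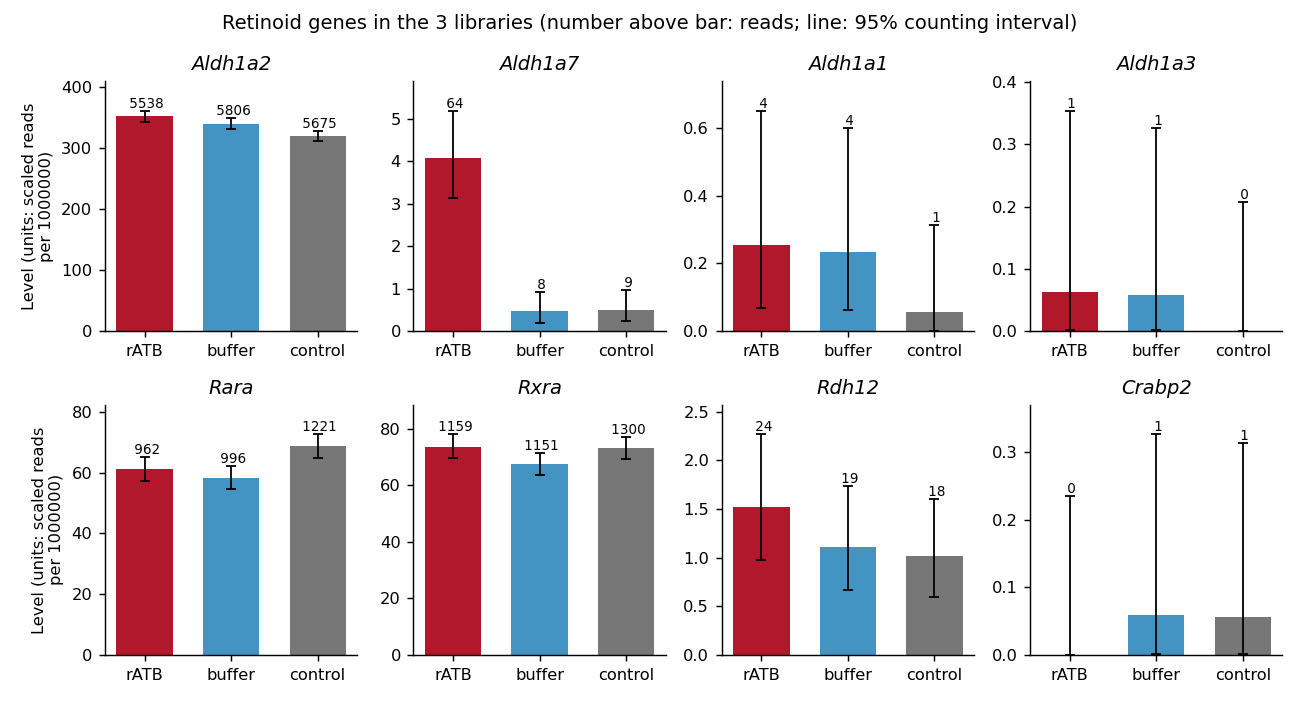
Levels of the 8 retinoid genes in units (vertical axes, linear, each from 0) in the rATB, buffer and control libraries, 1 library each; lines are 95% Poisson intervals for counting error and the number above each bar is its reads. Ratios between libraries were 0.849 to 1.10 for Aldh1a2, Rara and Rxra, while Aldh1a7 stood at 4.07 units after rATB against 0.468 after buffer and 0.506 in control cells, and Aldh1a1, Aldh1a3 and Crabp2 had at most 4 reads.

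Aldh1a7 (ENSMUSG00000024747) was the member that differed. It encodes a rodent relative of Aldh1a1 that has been described as poorly active on retinaldehyde, and it lies beside Aldh1a1 on chromosome 19, on the opposite strand. The gene had 64 reads after rATB, 8 after buffer and 9 in control cells. In units, that was 4.07 after rATB (interval 3.13 to 5.19), 0.468 after buffer (0.202 to 0.923) and 0.506 in control cells (0.232 to 0.961). The rATB library lay above both others and its interval overlapped neither, while buffer and control could not be told apart, at a ratio of 0.925 (interval 0.311 to 2.70). The rATB level was 8.68 times that after buffer (4.15 to 21.0) and 8.03 times that of the control (3.98 to 18.4).

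A gene is called here where log2(units + 1) differs by at least 1 between libraries, which is 2-fold in units + 1 and less than the fold in units for a low gene. Aldh1a7 was called, with differences of 1.79 from buffer and 1.75 from the control. It was 1 of the 113 genes (0.900%) called higher than after buffer and of the 119 (0.948%) called higher than in control cells. By size of increase, 11 genes of the 12559 differed more from buffer and 16 more from the control. The level rests on few reads, and the gene passed the filter only through the rATB library, since its mean over buffer and control was 0.487 units. There were 91 genes past the filter with such a mean under 1 unit, and 17 of them were called higher after rATB than after buffer. With the filter at 5 units Aldh1a7 was not among the genes tested, and with a pseudocount of 5 units its differences were 0.73 and 0.72.

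Aldh1a1 (ENSMUSG00000053279), which encodes the broadly expressed retinaldehyde dehydrogenase of liver and many stem cells, was near the limit of detection. It had 4 reads after rATB, 4 after buffer and 1 in control cells, or 0.254, 0.234 and 0.0563 units. Its ratio of rATB to buffer was 1.09 (interval 0.202 to 5.83), and against the control it was 4.52 (0.447 to 223). Both intervals overlapped those of Aldh1a7. Overlap of intervals does not show that ratios are alike, and whether the genes differed in response was not tested.

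Reads of closely related copies can be given to the wrong gene, so the sequences of Aldh1a7 and Aldh1a1 were compared. Their coding sequences are both 1506 bases long and align without a gap, with 1380 identical bases, or 91.6%. The longest stretch without a difference was 100 bases, shorter than a read of 150 bases. The comparison took coding sequence in single windows, and left out untranslated sequence and the second read of each pair. Of the 1357 windows of 150 bases in the coding sequence, 0 were the same in both genes. The median window differed at 11 bases, and 51 windows (3.76%) differed at only 2. Both ends of that range are shown, from the GENCODE M21 transcripts Aldh1a7-201 and Aldh1a1-201 on GRCm38, 5′ to 3′ on the coding strand, with the differing bases in capitals. The most alike window, with 2 differing bases, covers bases 121 to 270 counted from 1 at the A of the start codon:
Aldh1a7: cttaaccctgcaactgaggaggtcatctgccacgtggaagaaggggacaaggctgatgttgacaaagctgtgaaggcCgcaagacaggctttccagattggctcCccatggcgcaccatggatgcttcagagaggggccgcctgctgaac
Aldh1a1: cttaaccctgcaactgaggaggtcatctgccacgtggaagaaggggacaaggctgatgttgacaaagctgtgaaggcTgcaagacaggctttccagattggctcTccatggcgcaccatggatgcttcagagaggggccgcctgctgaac
The least alike window, with 27 differing bases, covers bases 865 to 1014:
Aldh1a7: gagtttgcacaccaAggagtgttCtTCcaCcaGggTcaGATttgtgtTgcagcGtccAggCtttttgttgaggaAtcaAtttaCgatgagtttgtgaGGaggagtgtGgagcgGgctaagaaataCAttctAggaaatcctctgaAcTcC
Aldh1a1: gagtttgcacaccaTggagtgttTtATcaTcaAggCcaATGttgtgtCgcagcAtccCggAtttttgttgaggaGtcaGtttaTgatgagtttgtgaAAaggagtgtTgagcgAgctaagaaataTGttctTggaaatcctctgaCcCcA
A read from the second window carries many bases that mark its gene, and a read from the other carries few. How the authors treated reads that fit several places is not given in the sources used here. With the reads of both genes summed, there were 68 after rATB, 12 after buffer and 10 in control cells, and the rATB level was 6.15 times that after buffer (interval 3.30 to 12.5) and 7.68 times that of the control (3.93 to 16.7).

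**Figure D2:**
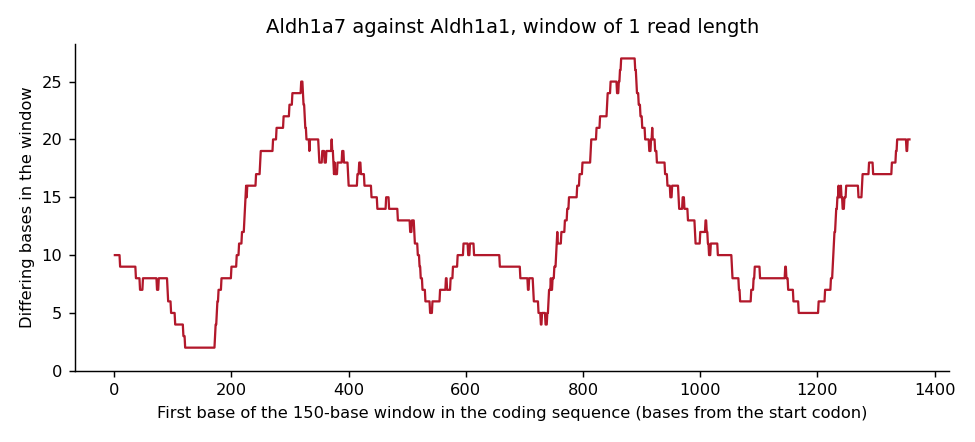
Number of bases at which Aldh1a7 and Aldh1a1 differ (vertical axis) in each window of 150 bases of the coding sequence. Windows are plotted by their first base counted from the start codon (horizontal axis). The count ranged from 2 to 27, and no window was the same in both genes.

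No gene of the annotation overlapped Aldh1a7. Annotated genes on the opposite strand, C730002L08Rik and Gm6684, overlapped Aldh1a1. Reads of stromal markers are given beside Aldh1a7. Dcn, which encodes the matrix proteoglycan decorin, had 8 reads after rATB, 1 after buffer and 0 in control cells. Lum, another matrix proteoglycan gene, had 3 reads after rATB, 0 after buffer and 1 in control cells. The defining collagen genes Col1a1, Col1a2 and Col3a1 had 0 reads in every library, except for 1 read of Col1a1 in control cells. Pdgfrb, which encodes a growth factor receptor of mesenchymal cells, had 85 reads after rATB, 90 after buffer and 117 in control cells, and was the only 1 of the 7 stromal markers to pass the filter. Its relative Pdgfra had 5, 4 and 6 reads in the same order. The ratio of rATB to buffer was 8.68 for Dcn (interval 1.16 to 385), on few reads, while Pdgfrb was highest in control cells. The reads of Pdgfra were too few to show a direction. The epithelial keratin genes Krt8, Krt18, Krt5 and Krt14 had 0 reads in every library. Epcam, the remaining epithelial marker, stood at 0.127 units after rATB, 0.293 after buffer and 0.563 in control cells. The part of these cells in the Aldh1a7 level was not tested.

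Aldh1a3 (ENSMUSG00000015134, on chromosome 7), the retinaldehyde dehydrogenase known from eye and nasal development, had 1 read after rATB, 1 after buffer and 0 in control cells. It was not detectable as different at this depth. Within the 4 Aldh1a genes, Aldh1a2 took 98.8% of the reads after rATB (exact binomial interval 98.4% to 99.0%), 99.8% after buffer (99.6% to 99.9%) and 99.8% in control cells (99.7% to 99.9%). Aldh1a7 took 1.14% after rATB (0.880% to 1.46%), against 0.137% after buffer (0.0594% to 0.271%) and 0.158% in control cells (0.0724% to 0.3003%). Per kilobase of exon the shares of Aldh1a2 were 98.7%, 99.8% and 99.8%, so the group was made up almost wholly of Aldh1a2 in each library on either scale.

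The receptor genes differed little, with ratios between libraries of 0.849 to 1.09. Rara (ENSMUSG00000037992, on chromosome 11), which encodes the widely expressed retinoic acid receptor alpha, had 962 reads after rATB, 996 after buffer and 1221 in control cells. Its level was 61.1 units after rATB (interval 57.3 to 65.1), 58.3 after buffer (54.8 to 62.1) and 68.7 in control cells (64.9 to 72.6). The control library was the highest, and the intervals of rATB and buffer overlapped. The ratio of rATB to buffer was 1.05 (interval 0.959 to 1.15). Against the control, rATB stood at 0.890 (0.817 to 0.969) and buffer at 0.849 (0.780 to 0.924). The interval of rATB against control reached 1 when libraries were scaled in other ways, at 0.921 (0.846 to 1.003) by total reads, 0.919 (0.844 to 1.001) by the trimmed mean of M-values and 0.926 (0.850 to 1.008) by the median of ratios. A small nuclear RNA gene, Gm22061, overlapped Rara on the same strand.

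Rxra (ENSMUSG00000015846, on chromosome 2) encodes the retinoid X receptor alpha, a partner of many nuclear receptors. It had 1159 reads after rATB, 1151 after buffer and 1300 in control cells. The level was 73.7 units after rATB (interval 69.5 to 78.0), 67.4 after buffer (63.6 to 71.4) and 73.1 in control cells (69.2 to 77.2). The rATB and control libraries were level, and the buffer library was a little lower. The ratio of rATB to buffer was 1.09 (interval 1.01 to 1.19), and by total reads it was 1.07 (0.982 to 1.16). Against the control, rATB stood at 1.01 (0.930 to 1.09) and buffer at 0.922 (0.851 to 0.998), and the interval of buffer included 1 under each of the 3 other scalings. Per kilobase of exon, Rara stood at 14.0 units and Rxra at 13.5 units after rATB, 13.4 and 12.3 after buffer, and 15.7 and 13.4 in control cells, ranks 3370 and 3689 of 12265.

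The other members were low. Rdh12 (ENSMUSG00000021123, on chromosome 12), a retinaldehyde reductase best known from photoreceptors, had 24 reads after rATB, 19 after buffer and 18 in control cells. Its level was 1.53 units after rATB (interval 0.977 to 2.27), 1.11 after buffer (0.670 to 1.74) and 1.01 in control cells (0.600 to 1.60). The 3 intervals overlapped, and the ratio of rATB to buffer was 1.37 (0.720 to 2.65). Crabp2 (ENSMUSG00000004885, on chromosome 3), which encodes a carrier that brings retinoic acid to its receptors, had 0 reads after rATB, 1 after buffer and 1 in control cells. The 2-sided interval for 0 reads reaches 0.234 units after rATB.

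Of the 8 members, 5 passed the filter of a mean of 1 unit, and Aldh1a1, Aldh1a3 and Crabp2 did not. In the comparison of rATB and buffer, 1 member was called higher, where 0.900% of the 12559 genes were, and 0 were called lower, where 0.669% were (1.57% in either direction). Against the control 1 member was called higher, again Aldh1a7, where 0.948% of genes were, and 0 lower, where 0.884% were (1.83% in either direction). In the comparison of buffer with control 0 members were called higher or lower, where 0.00% of genes were called higher and 0.0557% lower. Both rATB comparisons share the rATB library, so they do not count as separate evidence. The whole counting interval of the ratio to buffer lay above 1 for Aldh1a7 and Rxra, where this held for 19.6% of genes, and below 1 for 0 members, where it held for 20.0% of genes (39.6% in either direction). Against the control it lay above 1 for Aldh1a2 and Aldh1a7, where it did for 14.5% of genes, and below 1 for Rara, where it did for 27.3% (41.8% in either direction). Between buffer and control it lay above 1 for Aldh1a2, where it did for 5.61% of genes, and below 1 for Rara and Rxra, where it did for 21.9% (27.5% in either direction). Such differences were thus common between libraries without rATB.

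**Figure D3:**
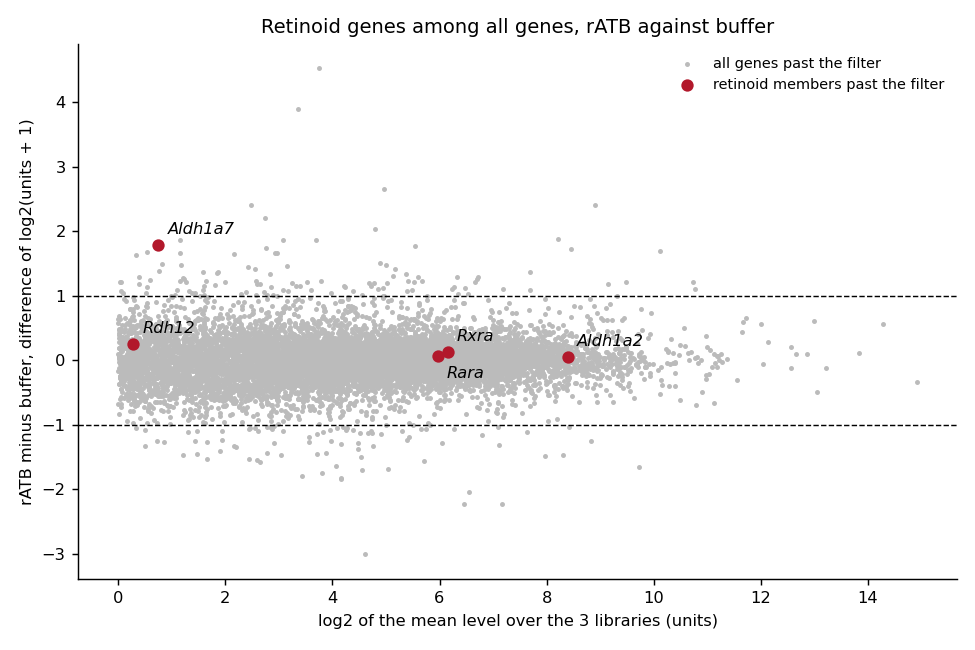
Difference of log2(units + 1) between rATB and buffer (vertical axis) against the log2 mean level in units (horizontal axis) for the 12559 genes past the filter (grey) and the 5 retinoid members among them (red); dashed lines mark differences of 1 and -1. Aldh1a7 lay at 1.79, and Aldh1a2, Rara, Rxra and Rdh12 lay between 0.05 and 0.26.

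The rest of the pathway was followed in 7 lists holding 94 different genes, of which 68 passed the filter and 11 had 0 reads in every library. Against buffer, 2 of the 68 were called higher after rATB and 2 lower, and against the control 1 higher and 3 lower. Of all genes past the filter, 0.900% were called higher and 0.669% lower against buffer, and 0.948% and 0.884% against the control. These shares stand beside the calls of each list below. Between buffer and control 0 were called, where 0.00% of all genes were called higher and 0.0557% lower. The median difference over the 68 was 0.06 for rATB minus buffer and -0.06 for rATB minus control, beside -0.0024 and -0.056 over all genes past the filter. Over all those genes the rATB library was above both others in 33.2% and below both in 44.1%.

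Genes of retinol uptake, binding and storage were mostly a little higher after rATB, with 0 called. Of 15 genes 8 passed the filter, 6 above both other libraries and 2 below both, with median differences of 0.26 from buffer and 0.14 from the control. Fabp5, a fatty acid binding protein that can also carry retinoic acid, stood at 171 units after rATB, 118 after buffer and 135 in control cells, a ratio to buffer of 1.45 (interval 1.37 to 1.54). Lpl, the lipoprotein lipase that frees retinol from circulating retinyl esters, stood at 1191 units after rATB, 1563 after buffer and 1314 in control cells, a ratio to buffer of 0.762 (0.748 to 0.777). For Rbp4, the plasma carrier of retinol, the levels were 2.35 units after rATB, 1.64 after buffer and 1.80 in control cells, and the interval of the ratio to buffer included 1 (0.854 to 2.43). Rbp2, Rbp7, Ttr, Lrat and Crabp1 had 0 reads in all 3 libraries, so the esterifying enzyme of retinol storage, Lrat, was not detected.

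Oxidoreductases of retinol and retinaldehyde showed 0 calls among the 9 of 19 genes that passed. The rATB library was above both others in 2 and below both in 5, with medians of -0.03 and -0.06. Rdh10, the main enzyme that makes retinaldehyde from retinol in the embryo, stood at 4.26 units after rATB, 5.97 after buffer and 6.36 in control cells, a ratio to buffer of 0.713 (interval 0.516 to 0.980). Rdh5, known from the visual cycle, had 2.03 units after rATB, 2.93 after buffer and 3.32 in control cells, and Rdh13, a mitochondrial relative, had 18.2, 22.2 and 20.7 in the same order. The ratios to buffer were 0.695 (0.431 to 1.10) for Rdh5 and 0.819 (0.700 to 0.958) for Rdh13. Rdh7, Rdh19, Sdr16c5, Sdr16c6 and Adh1 had 0 reads in every library.

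The clearance list held the gene that was lowest relative to buffer and to the control among the 68. Cyp2s1, a cytochrome P450 that can oxidise retinoic acid and is best known as a target of the aryl hydrocarbon receptor, had 23 reads after rATB, 88 after buffer and 121 in control cells. Its levels were 1.46, 5.15 and 6.81 units, lowest after rATB. The ratio of rATB to buffer was 0.284 (interval 0.171 to 0.453) and that of rATB to control 0.215 (0.131 to 0.337), and the gene was called lower in both comparisons. Cyp26b1, which degrades retinoic acid, stood at 2.54 units after rATB, 2.17 after buffer and 3.71 in control cells, and its ratio to buffer was 1.17 (0.732 to 1.89). Cyp26a1 and Cyp26c1, of the same family, had at most 6 and 2 reads in a library. Of the 4 genes 2 passed the filter.

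Among 18 nuclear receptors and cofactors 17 passed, 8 after rATB above both other libraries and 7 with it below both, and the medians were 0.05 and -0.06. Pparg, a lipid-sensing receptor that pairs with retinoid X receptors, was called lower in both comparisons. It stood at 4.00 units after rATB, 9.13 after buffer and 9.45 in control cells, and the ratio of rATB to buffer was 0.438 (interval 0.322 to 0.591). Vdr, the vitamin D receptor and another partner of retinoid X receptors, stood at 171 units after rATB, 99.5 after buffer and 100.8 in control cells, a ratio to buffer of 1.72 (1.62 to 1.83) that was short of a call at a difference of 0.78. Rarb, a receptor gene that retinoic acid itself induces, stood at 1.59 units after rATB, 2.28 after buffer and 1.97 in control cells, and its interval against buffer included 1 (0.404 to 1.18). Per kilobase of exon after rATB, Rxrb stood at 16.5 units, Rarg at 6.59 and Rarb at 0.302, while Rxrg had 0 reads in every library.

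Genes known as targets of retinoic acid differed in both directions. Of 16 genes 10 passed, with 0 called against buffer and 1 lower against the control, 3 after rATB above both other libraries and 4 with it below both. Their medians were 0.16 against buffer and -0.23 against the control. Tgm2, the tissue transglutaminase that retinoic acid induces in macrophages, stood at 747 units after rATB, 424 after buffer and 491 in control cells, a ratio to buffer of 1.76 (interval 1.71 to 1.82). Asb2, a ubiquitin ligase subunit first known from retinoic acid-treated human leukaemia cells, stood at 91.5 units after rATB, 163 after buffer and 186 in control cells. Its ratio to buffer was 0.562 (0.527 to 0.599), and its difference from the control, -1.02, was the call. Cebpe, a transcription factor of granulocytes, had 23.0 units after rATB, 30.4 after buffer and 28.7 in control cells, a ratio to buffer of 0.757 (0.660 to 0.868).

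Genes listed here as inducers or regulators of Aldh1a2 in dendritic cells all passed the filter, 15 of 15. Their action on Aldh1a2 in these cells was not tested. Against buffer 2 were called higher and 1 lower, and against the control 1 higher and 1 lower. Of all genes past the filter, 0.900% were called higher and 0.669% lower against buffer, and 0.948% and 0.884% against the control. In this list the rATB library was above both others in 7 and below both in 5, with medians of 0.17 and -0.06. Il4ra, the chain of the interleukin-4 receptor that binds the cytokine, stood at 313 units after rATB, 146 after buffer and 158 in control cells. Its ratio to buffer was 2.15 (interval 2.04 to 2.25), and its difference from the control was 0.98, just under a call. Receptor genes for the other inducers named above went both ways and were not called. Ratios to buffer were 0.752 (0.726 to 0.779) for Csf2ra and 0.871 (0.836 to 0.907) for Tlr2. Those of Csf2rb and Csf2rb2 were 1.21 (1.20 to 1.23) and 1.15 (1.14 to 1.17). Socs3, a feedback inhibitor of cytokine signalling, stood at 223 units after rATB, 103 after buffer and 109 in control cells, with a ratio to buffer of 2.17 (2.05 to 2.30). The called gene on the low side was Pparg, given above. Aldh1a2 itself was not called beside these differences.

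The other aldehyde dehydrogenases showed 0 calls among the 12 of 15 genes that passed. The rATB library was above both others in 4 and below both in 6, with medians of 0.01 and -0.12. Aldh7a1, an enzyme of lysine breakdown, stood at 13.1 units after rATB, 8.78 after buffer and 11.4 in control cells, a ratio to buffer of 1.49 (interval 1.20 to 1.85). Aldh18a1, of proline synthesis, had 29.8 units after rATB, 23.5 after buffer and 23.4 in control cells, a ratio to buffer of 1.27 (1.11 to 1.45). For Aldh5a1, which clears succinic semialdehyde, the levels were 1.97, 1.41 and 1.63 units in the same order, and the interval of the ratio to buffer included 1 (0.796 to 2.50).

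**Figure D4:**
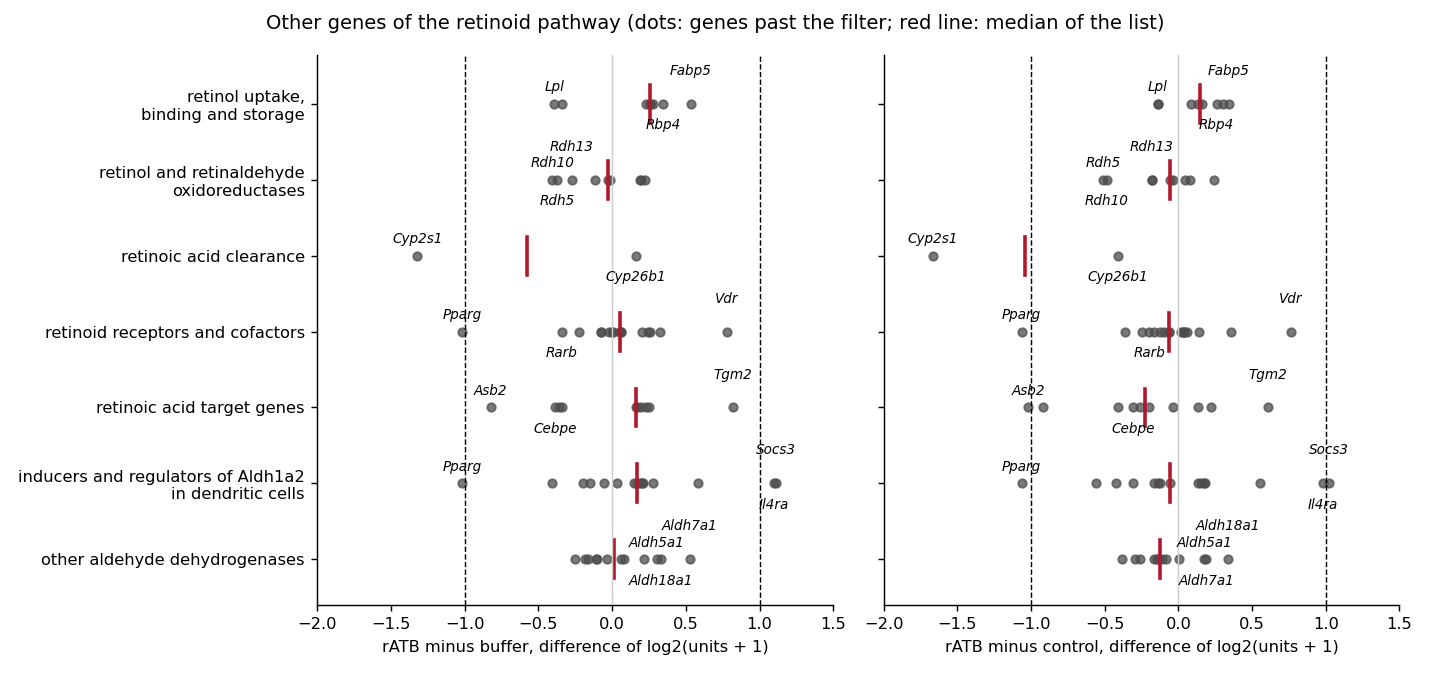
Differences of log2(units + 1) of rATB minus buffer (left) and rATB minus control (right) for the genes of the 7 pathway lists past the filter, 1 dot a gene, with the list's median as a red line and dashed lines at -1 and 1. Cyp2s1 and Pparg lay below -1 in both panels, Asb2 at -1.02 against the control, and Socs3 above 1 in both.

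Genes with a pattern like that of Aldh1a2 were sought over the 3 libraries, by the Euclidean distance between log2(units + 1) values centred on each gene's own mean, among 10349 genes averaging 5 units or more. The nearest were Ptrh2 at 0.00168, AI848100 at 0.00175, Tuba1a at 0.00270, Cox15 at 0.00330 and 2210404O07Rik at 0.00347. Ptrh2 stood at 15.4 units after rATB, 14.9 after buffer and 13.9 in control cells. A further count shows how little 3 libraries single out: 318 genes, or 3.07%, lay within a distance of 0.05 of Aldh1a2.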

How the data were processed

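Per the labels' protocols, RNA was extracted with TRIzol, made into libraries with a TruSeq RNA version 2 kit, which does not mark strand, and read as 150-bp pairs. The submitters' processing notes name TopHat2 2.0.13 and the build GRCh37, a human build name, while the deposited identifiers are mouse. The build is therefore unclear and no genome positions are printed. How reads were counted and scaled is not given in the sources used here. Log2 values for 37991 gene rows are what the authors deposited, per the file headers, with a spreadsheet error for log2 of 0 making up 54.0% of the entries for rATB, 53.1% for buffer and 53.3% for the control. Turned linear, the values above 0 were checked against the smallest one of their column, and 100% were a whole multiple of it within a relative tolerance of 1e-06, which gave reads and a scaling factor of 1.13 for rATB, 1.04 for buffer and 1 for the control.

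Rows were summed by symbol (25 damaged symbols restored from identifiers), and the deposited scaling was kept. Genes averaging 1 unit or more were screened for a difference of at least 1 in log2(units + 1). Intervals are exact (Poisson for a level, Clopper-Pearson for ratios and shares). Lengths are unions of GENCODE M21 exons, matched by identifier for 12265 of 12559 genes, and annotation overlaps and coding sequences are from the same release (GRCm38). Of the 150 symbols in the 7 pathway and 8 marker lists, 150 were found, 4 under an older symbol. Named from each pathway list were the called genes and the 3 with the largest difference between rATB and buffer, and from the markers the most abundant ones and genes with 0 reads. Further genes were named after their values were seen, such as Aldh2, Rxrb, Rarg, Dcn, Lum, Epcam, Csf2ra, Csf2rb, Csf2rb2 and Tlr2. The members and lists were chosen with earlier results of these data known. The call rule and intervals were tested on simulated data. Alternatives were other pseudocounts, scalings, filters and call sizes, and the sum of Aldh1a1 and Aldh1a7, which was added after the data were seen. Python 3.11.15, numpy 2.4.6, pandas 2.3.3 and scipy 1.17.1 were used.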

Additional observations from a re-analysis of the deposited data

How the results depend on the processing

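Aldh1a7 stayed the called member, in both rATB comparisons, under a pseudocount of 0.1 unit, the 3 other scalings, no filter, and the sum with Aldh1a1. The count of called members was 0 with a pseudocount of 5 units and 0 with a filter at 5 units in both rATB comparisons, against 1; the filter removes the gene. Its difference from buffer ranged from 0.73 to 2.87 and from the control from 0.72 to 2.78. Its difference of buffer minus control, not a call, was -0.04 and became 0.12 with the reads of Aldh1a1 added. Aldh1a2 moved to 0.20 for rATB minus control by the median of ratios and to 0.17 for buffer minus control by total reads, and was not called. The share of Aldh1a2 without Aldh1a1 and Aldh1a7 was 99.98% after rATB, 99.98% after buffer and 100% in control cells.

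Pathway genes called higher and lower against buffer, 2 and 2, became 4 higher and 3 lower at a 1.5-fold call size. There were 0 lower with a pseudocount of 5 units and 1 lower with a filter at 5 units. Against the control, 1 higher and 3 lower became 2 higher and 2 lower under each of the 3 other scalings. They became 4 higher and 4 lower at 1.5-fold, and 0 higher and 0 lower with a pseudocount of 5 units. A filter at 5 units left 2 lower. Of the 3 genes called lower, Asb2 lay nearest to the call size, at -1.02. Over all genes, calls against buffer (113 higher, 84 lower) became 183 and 175 with a pseudocount of 0.1 unit and 45 and 31 with 5 units, and against the control (119 and 111) 188 and 203, and 48 and 56. A filter at 5 units left 75 and 78 higher. For buffer against control (0 and 7) the counts were 20 and 37 with a pseudocount of 0.1 unit and 2 lower with 5 units, with 1 higher by total reads and 1 higher with no filter. The cause was not tested. No paired analysis was possible because each group held 1 library.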
